A study of Mus musculus with 24 samples.

Results

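The 37 genes described here make, control or export sterols and fatty acids. They were chosen by name, as the rows of the gene count table whose mouse Ensembl identifier carries the symbol of an enzyme of cholesterol synthesis (17 genes), a part of the SREBP switch (5 genes), a sterol carrier (1 gene), an enzyme of fatty acid synthesis or desaturation (9 genes), an LXR receptor (2 genes) or an LXR target (3 genes). All 37 were found among the 54446 genes of the table, and all 37 had enough reads to be among the 15325 genes tested. RNA was sequenced from spleen CD4+ T cells of 6 mice, each followed over 4 times. The 3 WT mice carry the numbers 1, 3 and 4, and the 3 mice with the genotype AIM2-/- carry the numbers 1, 2 and 4. Both genotypes have the C57BL/6 strain background, and no Cre, transgene or further agent is named for either. AIM2 is a sensor of DNA in the cytosol that can start an inflammasome. Ages were not given in the sources used here, and according to the study's methods the animals were matched for age and sex. Cells were collected at 0 h, called the control, or after 3, 6 or 24 h of stimulation with anti-CD3/CD28, antibodies that engage the T cell receptor and its costimulator. Each of the 8 groups of genotype and time holds 3 libraries, and the 4 libraries of a mouse share that animal's cells. Time 0 h is the only unstimulated group, so time in culture and stimulation cannot be told apart.

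Cholesterol is built from acetyl-CoA through mevalonate, squalene and lanosterol. The transcription factors SREBP-1 and SREBP-2 (genes Srebf1 and Srebf2) are held in the endoplasmic reticulum by SCAP and the INSIG proteins while sterols are plentiful, and when sterols fall they move to the Golgi, are cut, and switch on the genes of sterol and fatty acid synthesis. The liver X receptors (LXR, genes Nr1h2 and Nr1h3) work in the other direction: they bind oxysterols, which accumulate with cholesterol, and switch on the exporters Abca1 and Abcg1 and the ubiquitin ligase Mylip, which removes lipoprotein receptors from the cell surface. A T cell that leaves rest to divide needs new membrane, and both arms are known to be used in T cells.

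The libraries held 19715161 to 21627018 counted reads, and values are given as CPM, reads of a gene scaled to a common library size with edgeR's TMM factors. Values of a group are listed in the order of the mouse numbers, 1, 3 and 4 for WT and 1, 2 and 4 for AIM2-/-. The targeted gene did not separate the mice in full: at 0 h Aim2 stood at 21.5, 75.0 and 67.5 CPM in WT and 15.7, 20.1 and 19.0 CPM in AIM2-/-, against 17.0, 50.6 and 52.3 and 14.6, 14.9 and 15.1 CPM at 3 h, 11.5, 33.0 and 32.5 and 11.4, 10.7 and 8.17 CPM at 6 h, and 5.57, 34.0 and 38.6 and 6.55, 7.15 and 5.28 CPM at 24 h. So WT 1 lies just above the AIM2-/- mice at 0, 3 and 6 h and among them at 24 h, and the reads counted for Aim2 do not show which part of the gene they cover. Comparisons between genotypes are therefore given with and without the mouse labelled WT 1. The summed level of 5 CD4 T cell markers was 3150 to 3440 CPM at 0 h and lower at 24 h, at 2080 to 2240 CPM, in the libraries of both genotypes. Markers of myeloid cells stood higher in the AIM2-/- mice at 0 h, without overlap: the summed level of 5 macrophage and monocyte markers was 38.1, 49.0 and 30.2 CPM in WT and 311, 95.7 and 160.0 CPM in AIM2-/-, and that of 4 granulocyte and mast cell markers 22.2, 22.2 and 25.2 CPM against 229, 92.0 and 123 CPM. The sum of 4 B cell markers was also higher in AIM2-/- without overlap, at 3.04 to 4.10 CPM in WT and 9.89 to 32.1 CPM in AIM2-/-, as was that of 3 dendritic cell markers, at 1.85 to 3.41 against 3.59 to 19.5 CPM. The sum of 4 erythroid markers overlapped, at 3.8 to 6.35 against 5.22 to 59.0 CPM. In libraries of many cells, a change in the share of a cell type cannot be told apart from a change in RNA per cell.

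After 24 h of stimulation most genes of sterol and fatty acid synthesis stood above their level at 0 h and the LXR targets far below it, in both genotypes. In WT 23 of the 37 genes rose and 8 fell, against 36.6% and 34.8% of all tested genes (edgeR's quasi-likelihood test, two-sided, Benjamini-Hochberg adjusted p below 0.05 over all tested genes). In AIM2-/- 25 rose and 8 fell, against 36.8% and 33.5% of all tested genes. All 31 genes called in WT were called in AIM2-/- with the same sign. The remaining 2, Tm7sf2 and Scap, passed the test in AIM2-/- alone. The median log2 change over the 37 genes was 1.03 in WT and 0.98 in AIM2-/-, where that over all tested genes was -0.01 and 0.03. Over the 28 SREBP targets (the enzymes, Insig1 and Stard4) the median log2 change was 1.497 in WT and 1.21 in AIM2-/-, with 23 higher and 2 lower in WT and 24 higher and 2 lower in AIM2-/-. In all 3 WT mice 27 of the 37 genes were higher and 8 lower than at 0 h, and in all 3 AIM2-/- mice 25 were higher and 8 lower. How many of all tested genes moved the same way in all 3 mice, or were called alike in both genotypes, was not counted.

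**Figure D1:**
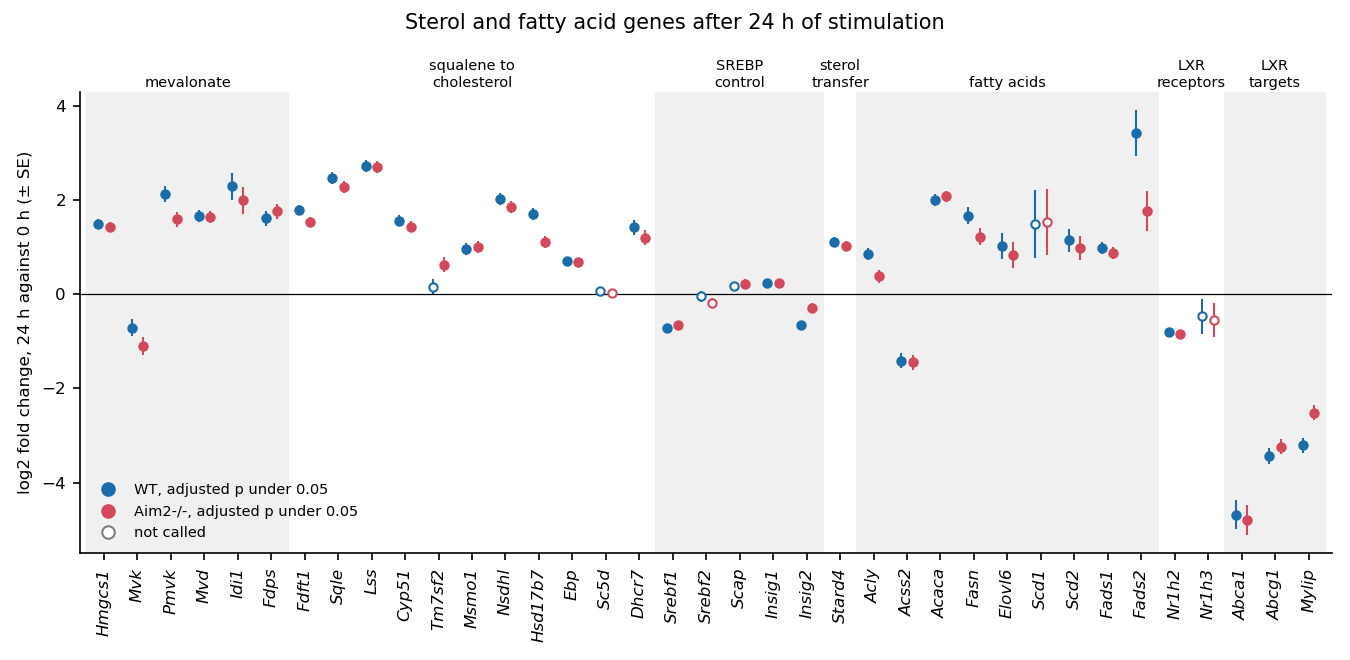
Log2 change from 0 h to 24 h of each of the 37 genes by role, in WT and AIM2-/- cells, as the fitted value with its standard error from edgeR over 3 mice per group. In both genotypes Lss and Sqle are among the larger rises, Abca1, Abcg1 and Mylip are the deepest falls, and Mvk and Acss2 are the synthesis genes below 0 that passed the test.

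The promoters of a few of these genes are shown because SREBP and its partners act there. Each window runs from 250 bases before to 50 bases after the RefSeq start of the gene, read 5′ to 3′ on the gene's own strand (RefSeq, build GRCm38.p6), and 29 of the 37 genes had at least 1 such window, 38 in all. Hmgcs1 was taken as a sterol-regulated enzyme, Insig1 as the feedback arm of SREBP, Lss as the sterol gene with the largest rise and Abca1 as the LXR target with the deepest fall. Capitals mark the sterol element core CACNCCAC, lengthened to TCACNCCAC where that longer form is present, and the CCAAT box, which reads ATTGG on the other strand.
Hmgcs1, chr13:119690101-119690400, plus strand: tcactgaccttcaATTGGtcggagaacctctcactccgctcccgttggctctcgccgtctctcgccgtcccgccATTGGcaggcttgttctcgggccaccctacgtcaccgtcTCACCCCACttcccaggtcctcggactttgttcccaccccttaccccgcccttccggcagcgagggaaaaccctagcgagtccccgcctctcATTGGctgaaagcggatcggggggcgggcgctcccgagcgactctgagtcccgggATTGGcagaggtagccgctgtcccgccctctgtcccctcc
Insig1, chr5:28071162-28071461, plus strand: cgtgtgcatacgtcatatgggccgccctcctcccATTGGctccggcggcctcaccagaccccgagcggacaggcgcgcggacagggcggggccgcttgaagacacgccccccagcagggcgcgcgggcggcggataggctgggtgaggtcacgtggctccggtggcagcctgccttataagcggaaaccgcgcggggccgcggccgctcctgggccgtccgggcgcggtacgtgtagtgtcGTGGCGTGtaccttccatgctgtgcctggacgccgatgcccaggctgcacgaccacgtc
Lss, chr10:76531355-76531654, plus strand: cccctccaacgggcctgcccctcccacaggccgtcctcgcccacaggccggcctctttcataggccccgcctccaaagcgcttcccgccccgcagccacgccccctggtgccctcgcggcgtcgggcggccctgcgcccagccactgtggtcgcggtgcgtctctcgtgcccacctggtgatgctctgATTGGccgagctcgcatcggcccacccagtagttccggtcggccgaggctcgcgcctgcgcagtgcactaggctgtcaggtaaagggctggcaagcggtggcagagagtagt
Abca1, chr4:53159846-53160145, minus strand: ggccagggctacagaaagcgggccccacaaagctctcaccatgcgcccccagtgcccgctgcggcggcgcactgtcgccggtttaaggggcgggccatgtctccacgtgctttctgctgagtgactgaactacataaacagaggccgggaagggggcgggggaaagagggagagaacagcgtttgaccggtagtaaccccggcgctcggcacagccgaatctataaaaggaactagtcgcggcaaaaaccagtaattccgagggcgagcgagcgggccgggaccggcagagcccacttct
A gene is counted below when any of its windows holds the motif on either strand, and the comparison is with 27025 genes counted the same way. The longer element TCACNCCAC was present in 1 of the 29 genes, Hmgcs1, 137 bases before the start, and in 1.44% of all genes. Its core CACNCCAC, which the longer element contains, was present in 2 of the 29, Hmgcs1 and Insig1, and in 7.12% of all genes. CCAAT, the site of NF-Y, a factor that works beside SREBP at many sterol genes, was present in 22 of the 29 genes, in 18 of the 21 SREBP targets with a window and in 41.1% of all genes (42.6% of the 10598 tested genes with a window). GGGCGG, the core of an Sp1 site, was present in 23 of the 29 and in 38.2% of all genes (66.4% of the tested genes with a window). Hmgcs1 holds 4 CCAAT boxes, Lss and Insig1 hold 1 each, and Abca1 holds none. A pair of AGGTCA sites 4 bases apart, the arrangement known from LXR elements, was present in 0 of the 29 genes and in 0.0148% of all genes. Only exact letters were searched, a form held by 0 of the 10598 tested genes with a window. The result of 0 therefore cannot show whether a looser form of the element is present. These are matches of letters, and their occupancy was not measured.

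Of the 6 genes of the mevalonate part of the pathway, 5 rose and 1 fell at 24 h in each genotype. Hmgcs1, which makes HMG-CoA from acetyl-CoA units, was at 70.1, 65.7 and 76.7 CPM at 0 h, 83.0, 83.2 and 99.6 CPM at 3 h, 111, 109 and 117 CPM at 6 h and 193, 216 and 194 CPM at 24 h in WT. Hmgcs1 in AIM2-/- was at 61.9, 59.7 and 59.4 CPM at 0 h, 90.9, 77.4 and 89.96 CPM at 3 h, 97.9, 98.3 and 105 CPM at 6 h and 144, 186 and 160.5 CPM at 24 h. Every mouse was higher at 24 h than any library at 0 h, with a log2 change of 1.505 (SE 0.10, adjusted p 1.2e-11) in WT and 1.44 (SE 0.10, adjusted p 3.45e-11) in AIM2-/-. Idi1, the isomerase that makes the allylic building block of isoprenoids, was low, at 0.7, 0.672 and 0.811 CPM at 0 h, 1.25, 1.65 and 1.35 CPM at 3 h, 1.77, 2.34 and 2.04 CPM at 6 h and 4.10, 3.49 and 3.18 CPM at 24 h in WT. Idi1 in AIM2-/- was at 0.629, 0.787 and 0.738 CPM at 0 h, 0.515, 0.962 and 0.706 CPM at 3 h, 1.14, 0.878 and 1.39 CPM at 6 h and 2.30, 4.08 and 2.31 CPM at 24 h. Its groups at 0 and 24 h did not overlap, and the log2 change was 2.29 (SE 0.29, adjusted p 3.56e-07) in WT and 2.00 (SE 0.29, adjusted p 2.57e-06) in AIM2-/-, while at 3 h it rose in WT (log2 change 0.96, SE 0.29, adjusted p 0.0144) and was 0.02 (SE 0.30, adjusted p 0.982) in AIM2-/-. The rise at 3 h in WT was no longer called without WT 1, at 1.01 (adjusted p 0.0697), without WT 3, at 0.77 (adjusted p 0.203), or without WT 4, at 1.05 (adjusted p 0.0737). Pmvk, the phosphomevalonate kinase, moved late, with log2 changes of 0.01, 0.17 and 2.14 (SE 0.17, adjusted p 4.12e-10) at 3, 6 and 24 h in WT and a rise of 1.59 (SE 0.17, adjusted p 3.42e-08) at 24 h in AIM2-/-. Mvd, the decarboxylase, was at 10.8, 11.6 and 9.53 CPM at 0 h, 11.6, 12.0 and 13.1 CPM at 3 h, 14.3, 14.6 and 16.3 CPM at 6 h and 30.6, 35.7 and 34.6 CPM at 24 h in WT. Mvd in AIM2-/- was at 9.10, 10.6 and 10.8 CPM at 0 h, 13.1, 9.49 and 12.0 CPM at 3 h, 22.3, 17.7 and 19.0 CPM at 6 h and 28.8, 32.8 and 33.3 CPM at 24 h. It rose in WT by a log2 change of 1.66 (adjusted p 2.72e-10). Fdps, which makes farnesyl diphosphate, rose from 4.21 ± 0.395 to 12.9 ± 0.819 CPM, by 1.62 (adjusted p 1.22e-08). A second protein-coding model lies over Fdps on the same strand and one on the other strand over Mvd, so the reads of these genes may be split or shared.

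Mvk, the mevalonate kinase, was the exception in this group, since it fell within 3 h and was still below its start at 24 h. It stood at 26.2, 45.6 and 52.4 CPM at 0 h, 12.3, 12.2 and 14.4 CPM at 3 h, 10.8, 11.1 and 12.6 CPM at 6 h and 26.0, 24.4 and 25.6 CPM at 24 h in WT. Mvk in AIM2-/- was at 40.1, 52.2 and 57.3 CPM at 0 h, 13.1, 11.6 and 14.0 CPM at 3 h, 18.8, 15.6 and 14.9 CPM at 6 h and 20.7, 26.2 and 22.9 CPM at 24 h. The fall at 3 h was present in all 6 mice, though the mouse labelled WT 1 started lower than the rest and at 24 h was back near its own start. The log2 change after 3 h was -1.68 (SE 0.19, adjusted p 7.8e-07) in WT and -1.95 (SE 0.19, adjusted p 2.11e-07) in AIM2-/-, and that after 24 h -0.71 (SE 0.18, adjusted p 0.00162) in WT and -1.10 (SE 0.18, adjusted p 1.78e-05) in AIM2-/-. Between 6 and 24 h it rose again, by 1.14 (SE 0.19, adjusted p 2.72e-05) in WT and 0.50 (SE 0.18, adjusted p 0.0272) in AIM2-/-, where the call was lost without mouse 2 (0.37, adjusted p 0.222) or mouse 4 (0.44, adjusted p 0.142).

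From squalene to cholesterol, 9 of 11 genes rose in WT and 10 of 11 in AIM2-/- at 24 h, and 0 fell in either. Lss, the cyclase that folds squalene epoxide into lanosterol, showed the largest rise of the 11, at 14.1, 14.2 and 14.4 CPM at 0 h, 33.3, 37.9 and 37.6 CPM at 3 h, 51.0, 50.3 and 46.9 CPM at 6 h and 87.8, 104 and 92.2 CPM at 24 h in WT. Lss in AIM2-/- was at 11.6, 14.1 and 11.8 CPM at 0 h, 34.0, 32.6 and 41.1 CPM at 3 h, 47.5, 42.1 and 46.6 CPM at 6 h and 67.6, 97.7 and 79.1 CPM at 24 h. It was 6.65-fold higher at 24 h in WT (log2 change 2.73, SE 0.13, adjusted p 1.21e-13) and 6.53-fold higher in AIM2-/- (log2 change 2.71, SE 0.13, adjusted p 2.49e-13), with no overlap between 0 h and any later time. Sqle, squalene epoxidase and a rate-limiting step, followed the same course, at 18.4, 16.1 and 22.8 CPM at 0 h, 49.6, 47.1 and 54.4 CPM at 3 h, 67.9, 65.2 and 65.8 CPM at 6 h and 104, 114 and 102 CPM at 24 h in WT. Sqle in AIM2-/- was at 16.1, 17.8 and 20.2 CPM at 0 h, 44.2, 44.6 and 52.0 CPM at 3 h, 45.8, 57.3 and 56.4 CPM at 6 h and 75.0, 102 and 85.4 CPM at 24 h. Its log2 change was already 1.40 (SE 0.13, adjusted p 7.14e-08) at 3 h in WT and 1.38 (SE 0.13, adjusted p 1.46e-07) in AIM2-/-, and reached 2.48 (SE 0.13, adjusted p 9.96e-13) and 2.28 (SE 0.13, adjusted p 4.59e-12) at 24 h. Nsdhl, a sterol dehydrogenase of the demethylation steps, rose 4.06-fold in WT and 3.61-fold in AIM2-/-, and Fdft1, which joins farnesyl units into squalene, 3.46-fold and 2.90-fold. Cyp51, the lanosterol demethylase, was the most abundant of the 11 per length, and rose from 93.8 ± 5.39 CPM at 0 h to 277 ± 19.3 CPM at 24 h in WT (SD, n = 3), against 96.2 ± 6.00 and 260.2 ± 9.49 CPM in AIM2-/-. Fdft1 and Cyp51 overlap Ctsb and Akap9 on the other strand, and whether reads were counted by strand was not given in the sources used here.

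The later steps moved less evenly. Msmo1, the sterol C4 methyl oxidase, rose by a log2 change of 0.96 in WT (adjusted p 7.85e-07) and 1.01 in AIM2-/- (adjusted p 4.36e-07), and Ebp, the sterol isomerase, by 0.71 (adjusted p 7.59e-09) and 0.69 (adjusted p 1.27e-08). Ebp was at 39.7, 45.7 and 43.7 CPM at 0 h, 53.9, 54.2 and 57.7 CPM at 3 h, 47.4, 49.7 and 51.7 CPM at 6 h and 70.5, 70.5 and 69.9 CPM at 24 h in WT. Ebp in AIM2-/- was at 49.3, 45.5 and 51.6 CPM at 0 h, 52.4, 54.4 and 56.8 CPM at 3 h, 57.4, 59.5 and 56.2 CPM at 6 h and 77.5, 75.7 and 82.9 CPM at 24 h. Dhcr7, the last reductase before cholesterol, was at 20.5, 28.4 and 20.5 CPM at 0 h, 22.7, 18.8 and 21.5 CPM at 3 h, 27.9, 22.5 and 24.3 CPM at 6 h and 63.3, 65.3 and 57.4 CPM at 24 h in WT. Dhcr7 in AIM2-/- was at 21.0, 25.2 and 27.2 CPM at 0 h, 26.0, 19.1 and 25.5 CPM at 3 h, 41.0, 30.6 and 36.9 CPM at 6 h and 47.8, 62.4 and 59.5 CPM at 24 h. It gave log2 changes of -0.14 and 0.11 at 3 and 6 h in WT that did not pass the test, and rose by 1.42 (SE 0.16, adjusted p 4.63e-08) at 24 h. Hsd17b7, a ketosteroid reductase, was at 12.4, 9.04 and 10.1 CPM at 0 h, 18.4, 20.1 and 21.8 CPM at 3 h, 23.8, 28.3 and 28.2 CPM at 6 h and 35.0, 34.1 and 34.1 CPM at 24 h in WT. Hsd17b7 in AIM2-/- was at 11.5, 16.5 and 14.6 CPM at 0 h, 17.3, 19.8 and 17.3 CPM at 3 h, 19.9, 21.7 and 19.2 CPM at 6 h and 30.1, 32.4 and 29.6 CPM at 24 h. It rose at every time in both genotypes, by a log2 change of 1.71 (SE 0.13, adjusted p 2.16e-10) at 24 h in WT and 1.12 (SE 0.13, adjusted p 1.28e-07) in AIM2-/-. Its small rise at 3 h in AIM2-/-, 0.36, was lost when any AIM2-/- mouse or WT 3 or 4 was left out, with the value between 0.25 and 0.41 and an adjusted p of 0.0579 to 0.232. Sc5d, the sterol desaturase, went the other way early. It fell, with a log2 change of -0.41 (SE 0.08, adjusted p 0.000521) at 3 h in WT and -0.41 (SE 0.08, adjusted p 0.000663) in AIM2-/-, and its log2 change from 0 to 24 h was 0.07 (SE 0.08, adjusted p 0.426) in WT and 0.03 (SE 0.08, adjusted p 0.73) in AIM2-/-. Tm7sf2, a sterol reductase that shares its strand with the overlapping gene Vps51, was 5.65 ± 0.515 CPM at 0 h and 6.30 ± 0.478 CPM at 24 h in WT (log2 change 0.16, SE 0.16, adjusted p 0.389) and rose in AIM2-/- (0.63, SE 0.16, adjusted p 0.00154).

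The messages of the SREBP switch itself moved little beside their targets. Srebf2, whose protein drives sterol genes above all, was at 403, 387 and 474 CPM at 0 h, 373, 353 and 370.4 CPM at 3 h, 461, 438 and 454 CPM at 6 h and 415, 428 and 383 CPM at 24 h in WT. Srebf2 in AIM2-/- was at 374, 394 and 377 CPM at 0 h, 295, 329 and 333 CPM at 3 h, 319, 386 and 332 CPM at 6 h and 273, 403 and 329 CPM at 24 h. The log2 change at 24 h was -0.04 (SE 0.11, adjusted p 0.737) in WT and -0.19 (SE 0.11, adjusted p 0.133) in AIM2-/-, and with each mouse as a block the latter passed, at -0.20 (adjusted p 0.04), as did the change at 3 h in AIM2-/-, at -0.26 (adjusted p 0.0197). Srebf1, whose protein drives fatty acid genes and is itself an LXR target, was at 198, 231 and 246 CPM at 0 h, 181, 176 and 176 CPM at 3 h, 159.5, 147 and 146 CPM at 6 h and 139.8, 143 and 131 CPM at 24 h in WT. Srebf1 in AIM2-/- was at 202, 217 and 199 CPM at 0 h, 175, 182 and 176 CPM at 3 h, 167, 147 and 146 CPM at 6 h and 117, 139.5 and 137 CPM at 24 h. It fell in both genotypes, with a log2 change of -0.71 (SE 0.08, adjusted p 1.55e-07) in WT and -0.65 (SE 0.08, adjusted p 5.84e-07) in AIM2-/- at 24 h, with groups that did not overlap. Rai1 overlaps it on the other strand. Scap, the escort of SREBP, was at 136, 150.3 and 156 CPM at 0 h, 165, 175 and 164 CPM at 3 h, 175, 174 and 166 CPM at 6 h and 165, 177 and 157 CPM at 24 h in WT. Scap in AIM2-/- was at 113, 131 and 121 CPM at 0 h, 142, 166 and 156 CPM at 3 h, 125, 146 and 141 CPM at 6 h and 124, 166 and 137 CPM at 24 h. It gave log2 changes of 0.18 (SE 0.10, adjusted p 0.109) in WT and 0.22 (SE 0.10, adjusted p 0.0447) in AIM2-/-. With each mouse as a block Scap also passed in WT, at 0.19 (adjusted p 0.0281), 0.22 (adjusted p 0.00758) and 0.17 (adjusted p 0.0237) for 3, 6 and 24 h, and at 6 h in AIM2-/-, at 0.17 (adjusted p 0.0329), whereas its call at 24 h there was lost without AIM2-/- 2 (0.15, adjusted p 0.161) or 4 (0.24, adjusted p 0.114) and without WT 1 (0.22, adjusted p 0.0703), 3 (0.19, adjusted p 0.141) or 4 (0.20, adjusted p 0.128), which share the estimate of the spread.

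The 2 INSIG genes differed. Insig1, a retention factor that is itself an SREBP target, was at 63.5, 64.7 and 73.2 CPM at 0 h, 70.0, 66.8 and 79.0 CPM at 3 h, 72.5, 78.7 and 81.9 CPM at 6 h and 77.4, 81.8 and 78.3 CPM at 24 h in WT. Insig1 in AIM2-/- was at 61.6, 62.6 and 60.6 CPM at 0 h, 58.1, 57.5 and 64.3 CPM at 3 h, 73.3, 63.0 and 67.6 CPM at 6 h and 64.6, 82.0 and 70.6 CPM at 24 h. It rose slightly by 24 h, by 0.24 (SE 0.09, adjusted p 0.0226) in WT and 0.23 (SE 0.09, adjusted p 0.026) in AIM2-/-, but in WT the call was lost without the mouse labelled WT 1, at 0.21 (adjusted p 0.118), or without WT 3, at 0.13 (adjusted p 0.386), and in AIM2-/- without mouse 2 (0.15, adjusted p 0.209) or 4 (0.24, adjusted p 0.0871) or without WT 3 (0.20, adjusted p 0.0833) or 4 (0.21, adjusted p 0.0533). Beside the synthesis enzymes this SREBP target changed little. Insig2, the other retention factor, which is not driven by SREBP, was at 23.9, 24.95 and 23.3 CPM at 0 h, 22.5, 22.1 and 24.2 CPM at 3 h, 22.1, 21.0 and 22.7 CPM at 6 h and 16.4, 15.2 and 14.1 CPM at 24 h in WT. Insig2 in AIM2-/- was at 17.8, 21.5 and 19.97 CPM at 0 h, 21.1, 20.1 and 23.8 CPM at 3 h, 19.8, 21.0 and 20.004 CPM at 6 h and 15.1, 17.9 and 15.8 CPM at 24 h. It fell, with a log2 change of -0.66 (SE 0.10, adjusted p 4.14e-06) in WT, with no overlap between 0 and 24 h, and of -0.28 (SE 0.10, adjusted p 0.015) in AIM2-/-, where the groups overlap and the call was lost without mouse 4, at -0.25 (adjusted p 0.0872). Stard4, which carries cholesterol between membranes, had log2 changes of -0.05 and 0.02 at 3 h, rose at 6 h and rose 2.17-fold in WT and 2.04-fold in AIM2-/- by 24 h (log2 change 1.12, SE 0.10, adjusted p 1.24e-09 in WT, and 1.03, SE 0.10, adjusted p 5.31e-09 in AIM2-/-). The step at 6 h was small, 0.31 and 0.31, and was lost in WT without WT 1 (0.31, adjusted p 0.0522) or WT 4 (0.23, adjusted p 0.145) and in AIM2-/- without mouse 1 (0.28, adjusted p 0.0663) or mouse 2 (0.28, adjusted p 0.0517).

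Of the 9 genes of fatty acid synthesis, 7 rose and 1 fell at 24 h in each genotype. Acaca, the acetyl-CoA carboxylase that commits carbon to fatty acids, was at 11.7, 14.6 and 14.1 CPM at 0 h, 16.6, 16.7 and 17.4 CPM at 3 h, 43.9, 43.7 and 41.8 CPM at 6 h and 53.7, 57.2 and 52.0 CPM at 24 h in WT. Acaca in AIM2-/- was at 11.8, 10.2 and 11.3 CPM at 0 h, 15.7, 15.3 and 16.4 CPM at 3 h, 24.4, 37.5 and 34.8 CPM at 6 h and 44.1, 51.9 and 45.1 CPM at 24 h. It rose 4.03-fold by 24 h in WT and 4.23-fold in AIM2-/-. In WT most of the rise came between 3 and 6 h (log2 change 0.33, 1.68 and 2.01 at 3, 6 and 24 h), and in AIM2-/- the steps were more even (0.51, 1.53 and 2.08). Fasn, the fatty acid synthase, was at 213, 197 and 247 CPM at 0 h, 356, 391 and 342 CPM at 3 h, 558, 538 and 508 CPM at 6 h and 662, 777 and 660.3 CPM at 24 h in WT. Fasn in AIM2-/- was at 217, 239 and 199 CPM at 0 h, 263, 389.7 and 324 CPM at 3 h, 270.1, 389 and 319 CPM at 6 h and 366, 684 and 479.9 CPM at 24 h. The rise at 24 h was 1.67 (SE 0.18, adjusted p 3.9e-08) in WT and 1.22 (SE 0.18, adjusted p 3.39e-06) in AIM2-/-, and the AIM2-/- mice spread widely at 24 h, with mouse 2 highest. Mouse 2 also had the lowest macrophage and granulocyte marker sums of the AIM2-/- mice at 0 h and mouse 1 the highest; the part of those cells in the spread was not tested. Acly, which makes the acetyl-CoA used by both pathways, rose from 281, 263 and 298 to 475, 552 and 503 CPM in WT (log2 change 0.86, SE 0.13, adjusted p 5.12e-06) and from 302, 293 and 289.5 to 294, 495 and 363 CPM in AIM2-/- (log2 change 0.38, SE 0.13, adjusted p 0.0132). In AIM2-/- that rise rested on mouse 2, without which it was 0.15 (adjusted p 0.27). Acss2, which makes acetyl-CoA from acetate and is also counted among SREBP targets, was at 36.6, 51.6 and 52.4 CPM at 0 h, 24.3, 26.1 and 30.6 CPM at 3 h, 19.2, 16.0 and 20.1 CPM at 6 h and 17.6, 16.6 and 18.5 CPM at 24 h in WT. Acss2 in AIM2-/- was at 37.1, 57.6 and 54.9 CPM at 0 h, 25.6, 31.1 and 27.4 CPM at 3 h, 28.1, 25.6 and 24.5 CPM at 6 h and 15.7, 19.9 and 19.4 CPM at 24 h. It fell, with a log2 change of -1.41 (SE 0.16, adjusted p 9.12e-08) in WT, where it was 2.66-fold lower, and of -1.44 (SE 0.16, adjusted p 7.57e-08) in AIM2-/-. Several genes overlap Acss2 on the other strand.

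Among the elongase and desaturases, Scd2 was abundant and Scd1 barely detected. Scd2, a stearoyl-CoA desaturase, was at 143, 179 and 93.8 CPM at 0 h, 95.9, 91.8 and 74.5 CPM at 3 h, 102, 60.7 and 57.5 CPM at 6 h and 283, 361 and 277 CPM at 24 h in WT. Scd2 in AIM2-/- was at 159.9, 134 and 141 CPM at 0 h, 152, 80.2 and 108 CPM at 3 h, 147, 89.7 and 104 CPM at 6 h and 249.7, 315 and 295 CPM at 24 h. In WT it fell at first, with log2 changes of -0.66 (SE 0.25, adjusted p 0.0475) after 3 h, then -0.91 (SE 0.25, adjusted p 0.00442) after 6 h, before a rise of 1.15 (SE 0.25, adjusted p 0.000357) by 24 h. The early falls were lost without WT 3, at -0.49 (adjusted p 0.282) and -0.60 (adjusted p 0.119), and that at 3 h also without WT 1, at -0.71 (adjusted p 0.0943), or AIM2-/- 4, at -0.66 (adjusted p 0.0841). In AIM2-/- the corresponding early values were -0.35 (SE 0.25, adjusted p 0.319), then -0.35 (SE 0.25, adjusted p 0.252), and by 24 h it had risen by 0.98 (SE 0.25, adjusted p 0.00156). Scd1, its close relative, was at 0.15, 1.34 and 1.27 CPM at 0 h, 0.463, 0.802 and 0.327 CPM at 3 h, 0.709, 0.876 and 0.146 CPM at 6 h and 2.38, 3.34 and 2.05 CPM at 24 h in WT. Scd1 in AIM2-/- was at 2.42, 0.591 and 0.295 CPM at 0 h, 2.02, 0.412 and 0.753 CPM at 3 h, 1.67, 0.508 and 1.01 CPM at 6 h and 2.98, 3.57 and 3.08 CPM at 24 h. At 0 h the mouse labelled WT 1 was the lowest, at the worth of 3 reads, and AIM2-/- mouse 1 the highest. The log2 change at 24 h was 1.49 (SE 0.72, adjusted p 0.0699) in WT and 1.54 (SE 0.71, adjusted p 0.0585) in AIM2-/-, and with each mouse as a block it was 1.52 (adjusted p 0.0135) and 1.87 (adjusted p 0.00297). Elovl6, the elongase of palmitate, was at 14.3, 15.2 and 17.6 CPM at 0 h, 18.6, 34.3 and 58.0 CPM at 3 h, 22.0, 27.7 and 31.2 CPM at 6 h and 31.6, 34.3 and 30.3 CPM at 24 h in WT, where the mice spread widely at 3 h with WT 4 highest. It rose by 1.23 (SE 0.27, adjusted p 0.0012) at 3 h in WT, and by 0.81 (edgeR adjusted p 0.0386) without WT 4. Its rise at 24 h was 1.03 (SE 0.27, adjusted p 0.00183) in WT and 0.83 (SE 0.27, adjusted p 0.00929) in AIM2-/-, where the call was lost without mouse 2 (0.68, adjusted p 0.0797) or mouse 4 (0.79, adjusted p 0.0689). Fads1, the delta-5 desaturase of polyunsaturated fatty acids, was at 25.7, 29.1 and 27.5 CPM at 0 h, 24.9, 22.0 and 22.1 CPM at 3 h, 24.2, 21.7 and 21.1 CPM at 6 h and 51.2, 60.6 and 51.2 CPM at 24 h in WT. Fads1 in AIM2-/- was at 27.6, 24.4 and 28.7 CPM at 0 h, 34.1, 23.0 and 29.6 CPM at 3 h, 32.8, 25.5 and 30.2 CPM at 6 h and 48.6, 54.3 and 45.8 CPM at 24 h. It rose by 0.99 (SE 0.13, adjusted p 5.25e-07) at 24 h in WT and by 0.88 (SE 0.13, adjusted p 2.71e-06) in AIM2-/-. Fads2, the delta-6 desaturase, was at 0.5, 0.517 and 0.507 CPM at 0 h, 3.01, 1.37 and 1.82 CPM at 3 h, 4.92, 2.38 and 2.19 CPM at 6 h and 4.76, 5.86 and 6.05 CPM at 24 h in WT. Fads2 in AIM2-/- was at 2.13, 0.935 and 1.87 CPM at 0 h, 6.87, 2.29 and 5.41 CPM at 3 h, 12.4, 4.16 and 8.80 CPM at 6 h and 5.57, 5.89 and 5.38 CPM at 24 h. It rose by 3.44 (SE 0.49, adjusted p 2e-06) at 24 h in WT and 1.77 (SE 0.43, adjusted p 0.00106) in AIM2-/-.

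**Figure D2:**
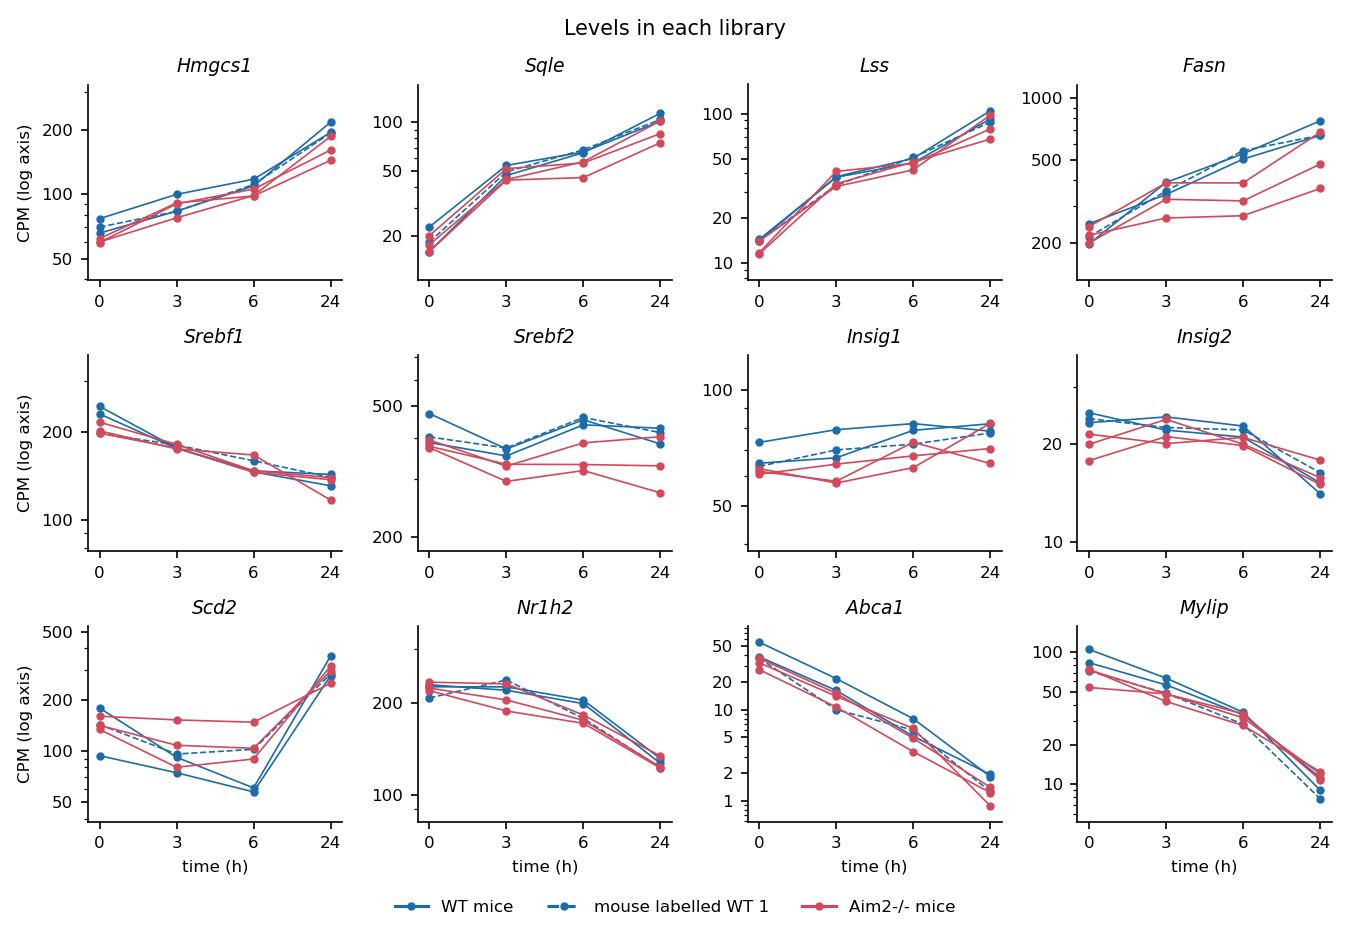
CPM on a log axis in each library over 0, 3, 6 and 24 h for genes of the SREBP and LXR arms, with a line for each mouse and the mouse labelled WT 1 drawn dashed. The lines of Abca1 and Mylip fall in every mouse, and those of Lss and Sqle climb in every mouse.

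All 3 LXR targets fell at every time in both genotypes. Abca1, which loads cholesterol onto lipoproteins, was at 36.9, 55.4 and 38.2 CPM at 0 h, 10.04, 22.0 and 16.3 CPM at 3 h, 5.98, 7.98 and 5.11 CPM at 6 h and 1.27, 1.85 and 1.95 CPM at 24 h in WT. Abca1 in AIM2-/- was at 32.9, 36.9 and 27.6 CPM at 0 h, 14.1, 15.2 and 10.7 CPM at 3 h, 6.23, 4.85 and 3.46 CPM at 6 h and 0.88, 1.41 and 1.23 CPM at 24 h. The mice are ordered by time without overlap, and at 24 h Abca1 was 25.7-fold lower in WT (log2 change -4.68, SE 0.31, adjusted p 2.1e-11) and 27.6-fold lower in AIM2-/- (log2 change -4.79, SE 0.32, adjusted p 3.24e-11). Abcg1, the partner exporter, was at 159, 197 and 135 CPM at 0 h, 76.1, 95.1 and 92.0 CPM at 3 h, 40.2, 40.3 and 32.9 CPM at 6 h and 13.0, 15.9 and 16.3 CPM at 24 h in WT. Abcg1 in AIM2-/- was at 143, 150.3 and 139.7 CPM at 0 h, 66.7, 76.8 and 57.6 CPM at 3 h, 41.5, 36.9 and 29.9 CPM at 6 h and 15.0, 18.2 and 12.9 CPM at 24 h. It was 10.9-fold lower at 24 h in WT (log2 change -3.44, SE 0.17, adjusted p 2.74e-13) and 9.41-fold lower in AIM2-/- (log2 change -3.23, SE 0.17, adjusted p 9.06e-13). Mylip was at 72.0, 105 and 83.2 CPM at 0 h, 49.0, 63.6 and 56.5 CPM at 3 h, 28.5, 35.1 and 33.6 CPM at 6 h and 7.80, 9.04 and 11.2 CPM at 24 h in WT. Mylip in AIM2-/- was at 54.1, 73.3 and 74.0 CPM at 0 h, 48.4, 48.3 and 42.3 CPM at 3 h, 31.9, 34.2 and 27.9 CPM at 6 h and 12.0, 10.8 and 12.5 CPM at 24 h. It was 9.26-fold lower in WT (log2 change -3.21, SE 0.17, adjusted p 6.67e-13) and 5.70-fold lower in AIM2-/- (log2 change -2.51, SE 0.16, adjusted p 1.96e-11). Markers of some other cells fell over the same times, and others did not. In WT the granulocyte and mast cell sum went from 22.2 to 25.2 CPM at 0 h to 3.24 to 4.62 CPM at 24 h and the macrophage and monocyte sum from 30.2 to 49.0 CPM to 12.8 to 23.5 CPM, and in AIM2-/- the latter went from 95.7 to 311 CPM to 27.3 to 148 CPM. Csf1r, a defining receptor of macrophages, was at 5.30, 7.75 and 7.40 CPM at 0 h and 0.506, 0.308 and 0.256 CPM at 24 h in WT, against 46.7, 12.8 and 22.0 and 7.18, 0.856 and 0.82 CPM in AIM2-/-. Cd68, of the same list, had 119, 96 and 86 reads at 0 h and 82, 81 and 107 at 24 h in WT. Mpo holds most reads of the granulocyte and mast cell sum in WT, at 416, 317 and 470 at 0 h and 65, 40 and 61 at 24 h. Cpa3, of that list too, had 27, 26 and 25 reads at 0 h and 21, 16 and 28 at 24 h in WT. In WT the B cell sum went from 3.04 to 4.1 CPM to 2.72 to 3.95 CPM, and the erythroid sum from 3.8 to 6.35 CPM to 2.26 to 11.2 CPM. The sum of 2 CD8 T cell markers rose in AIM2-/-, from 8.12 to 10.9 CPM to 11.3 to 15.6 CPM. The part of these cells in the fall of the 3 targets was not tested. The calls of all 3 were kept whichever mouse was left out, with the exception of Mylip at 3 h in AIM2-/-, where the log2 change of -0.53 (SE 0.15, adjusted p 0.00952) was no longer called without mouse 2, at -0.50 (adjusted p 0.0731), or mouse 4, at -0.40 (adjusted p 0.167).

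The LXR genes themselves moved less than the targets. Nr1h2, the receptor most tissues express, was at 207, 229 and 225 CPM at 0 h, 237, 219.6 and 225 CPM at 3 h, 177, 199 and 204 CPM at 6 h and 123, 127 and 131 CPM at 24 h in WT. Nr1h2 in AIM2-/- was at 219, 233 and 223 CPM at 0 h, 188, 230.4 and 204 CPM at 3 h, 171, 182 and 175 CPM at 6 h and 122, 134 and 123 CPM at 24 h. It fell, with a log2 change of -0.80 (SE 0.08, adjusted p 7.12e-09) at 24 h in WT and -0.83 (SE 0.08, adjusted p 4.39e-09) in AIM2-/-, with no overlap, and reads of a processed pseudogene named after it could be shared with it. Nr1h3, the receptor typical of macrophages and liver, was at 1.00, 1.34 and 0.76 CPM at 0 h, 1.11, 1.27 and 0.841 CPM at 3 h, 1.11, 1.56 and 1.46 CPM at 6 h and 1.01, 0.719 and 0.513 CPM at 24 h in WT. Nr1h3 in AIM2-/- was at 2.27, 0.837 and 1.43 CPM at 0 h, 1.503, 0.871 and 1.93 CPM at 3 h, 1.36, 1.62 and 1.49 CPM at 6 h and 1.08, 0.957 and 1.08 CPM at 24 h. At -0.46 (SE 0.37, adjusted p 0.274) in WT and -0.54 (SE 0.36, adjusted p 0.178) in AIM2-/- its change did not pass the test, and AIM2-/- mouse 1, with the highest macrophage marker sum, was the highest at 0 h.

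Set against each other within each mouse, the SREBP and LXR targets moved apart with time. The mean log2 change over the 28 SREBP targets was 0.274 ± 0.067, 0.497 ± 0.134 and 1.31 ± 0.10 at 3, 6 and 24 h in WT (SD, n = 3 mice) and 0.217 ± 0.102, 0.551 ± 0.068 and 1.12 ± 0.17 in AIM2-/-. That over the 3 LXR targets was -0.99 ± 0.20, -2.09 ± 0.12 and -3.74 ± 0.32 in WT and -0.97 ± 0.16, -1.95 ± 0.28 and -3.48 ± 0.02 in AIM2-/-. The gap between them reached 5.05 ± 0.42 in WT and 4.59 ± 0.16 in AIM2-/- at 24 h. By mouse, the SREBP mean at 24 h was 1.37, 1.36 and 1.19 in WT and 0.95, 1.30 and 1.11 in AIM2-/-, so the ranges of the genotypes overlap. The LXR mean was -3.85, -3.99 and -3.38 in WT and -3.50, -3.47 and -3.46 in AIM2-/-. These are descriptions on genes chosen for their roles and carry no test.

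**Figure D3:**
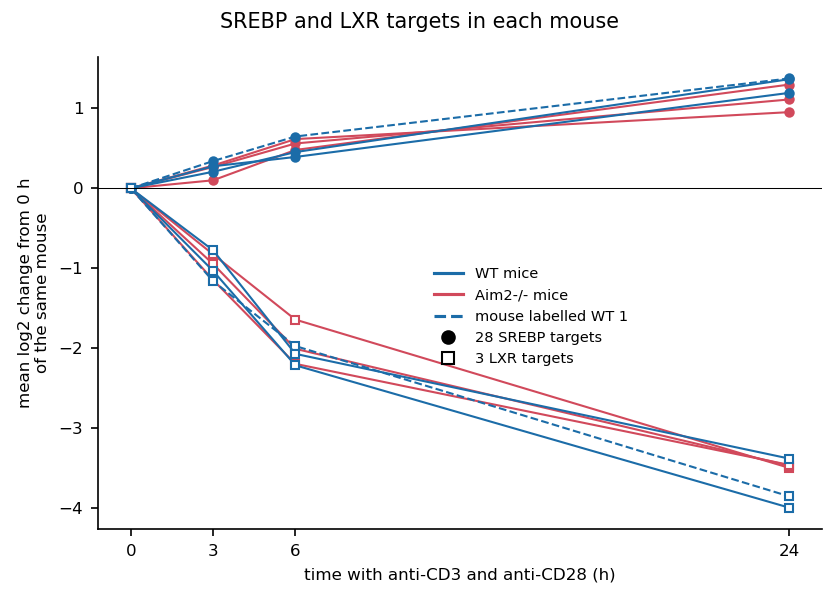
Mean log2 change from 0 h at 3, 6 and 24 h over the 28 SREBP targets and over the 3 LXR targets, with a point for each mouse. At 24 h all 6 mice lie above 0 for SREBP targets (0.95 to 1.37) and below -3 for LXR targets.

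The courses differed in when they set in. At 3 h 15 of the 37 genes rose and 8 fell in WT, against 16.2% and 16.4% of all tested genes, and 12 rose and 6 fell in AIM2-/-, against 16.1% and 14.6%. At 6 h 17 rose and 9 fell in WT, against 26.4% and 24.8%, and 17 rose and 8 fell in AIM2-/-, against 28.5% and 22.7%. The lists overlapped: 17 of the 23 genes called at 3 h in WT were also called in AIM2-/-, where 18 were called, and at 6 h 23 of 26 and of 25, with 0 genes of opposite sign. Of the calls at 3 h, 12 of 23 in WT and 11 of 18 in AIM2-/- were kept whichever mouse was left out, at 6 h 19 of 26 and 20 of 25, and at 24 h 30 of 31 and 28 of 33. How many calls of all tested genes were kept in this way, or were shared by the genotypes, was not counted. Without the mouse labelled WT 1, 17, 22 and 30 genes were called in WT at 3, 6 and 24 h, where 22.4%, 43.7% and 64.1% of all tested genes were. Between 6 and 24 h 21 rose and 6 fell in WT, against 29.6% and 28% of all tested genes, and 21 rose and 7 fell in AIM2-/-, against 27.4% and 27%. Of the 28 SREBP targets, 15 were higher and 4 lower at 3 h in WT and 11 and 3 in AIM2-/-. From 6 to 24 h 21 of the 28 rose in each genotype. Pmvk and Dhcr7 made most of their rise in that later step, by 1.97 (SE 0.17, adjusted p 5.57e-09) and 1.31 (SE 0.15, adjusted p 3.57e-07) in WT, whereas Lss had 1.79 of its 2.73 log2 units by 6 h. With each mouse as a block Fdps, at 0.42 (adjusted p 0.032), and Cyp51, at 0.27 (adjusted p 0.0176), also passed at 3 h in AIM2-/-, Insig1, at 0.21 (adjusted p 0.0379), Acly, at 0.26 (adjusted p 0.0479), and Fads1, at -0.30 (adjusted p 0.0346), passed at 6 h in WT, and Fasn, at 0.39 (adjusted p 0.00399), and Fads2, at 0.88 (adjusted p 0.0126), passed from 6 to 24 h in WT. Scd1 passed from 6 to 24 h in AIM2-/- with that block, at 1.80 (adjusted p 0.00475).

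Levels between genes were compared as CPM per kilobase of exon, with the union of all annotated exons of a gene as its length. That union can be longer than the transcript present, which lowers the value and the rank. At 0 h in WT Nr1h2, at 65.7 ± 3.5 CPM per kb (SD, n = 3), and Srebf2, at 58.6 ± 6.4, headed the 37 genes, followed by Acly at 53.2 ± 3.3. The values of Srebf2, 53.9 to 65.9, overlap those of both neighbours. At 24 h Acly, at 96.6 ± 7.4, stood above Fasn at 63.9 ± 6.1 and Cyp51 at 62.8 ± 4.4, and the last 2 did not differ beyond their spread. Mylip went from rank 5 to rank 29 and Abcg1 from rank 7 to rank 30, and Abca1 ended lowest of all, at 0.163 ± 0.036 CPM per kb. Lss, in spite of its rise, had 8.79 ± 0.80 CPM per kb, rank 23, over a union of 10787 bases.

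Neighbouring genes of the same pathways were called in both directions. Of 39 further genes of sterol, fatty acid and LXR biology, chosen by name, 36 were tested, and at 24 h 19 rose and 15 fell in WT, where 36.6% of all tested genes rose and 34.8% fell, and 14 rose and 14 fell in AIM2-/-, where the shares were 36.8% and 33.5%, with a median log2 change of 0.19 and 0.21. Acsl5, an acyl-CoA synthetase, rose from 117 ± 5.92 to 455 ± 34.4 CPM in WT (SD, n = 3), by a log2 change of 1.96 (SE 0.10, adjusted p 5.36e-13), and by 1.63 (SE 0.10, adjusted p 8.6e-12) in AIM2-/-. Lpin1, a phosphatidate phosphatase, fell from 53.6 ± 3.55 to 8.33 ± 0.428 CPM in WT, with a log2 change of -2.69 (SE 0.18, adjusted p 2.06e-11), and of -2.19 (SE 0.17, adjusted p 4.29e-10) in AIM2-/-. Elovl5, an elongase of polyunsaturated fatty acids, fell, with a log2 change of -1.67 (SE 0.08, adjusted p 4.14e-13) in WT and -1.79 (SE 0.08, adjusted p 2.84e-13) in AIM2-/-. Pltp, a phospholipid transfer protein and LXR target, was low, at 0.95, 0.62 and 0.456 CPM at 0 h and 0.203, 0.103 and 0.154 CPM at 24 h in WT, and fell, with a log2 change of -2.10 (SE 0.78, adjusted p 0.0207). Its values at 24 h in WT are 4, 2 and 3 reads, near the floor of 3 counts, so the size of the fall is uncertain. In AIM2-/- it had 78, 17 and 24 reads at 0 h and 17, 4 and 7 at 24 h. Cyp27a1, which makes the LXR ligand 27-hydroxycholesterol, passed the test as lower but was at 0.2, 0.258 and 0.253 CPM at 0 h and 0, 0 and 0 CPM at 24 h in WT, near or below the worth of 3 reads, so no fold is given.

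Between the genotypes, differences in these genes passed edgeR's test at 6 h and at no other time. At 6 h 12 of the 37 genes passed, 6 higher and 6 lower in AIM2-/-, where 15.8% of all tested genes passed. Fads2 was at 4.92, 2.38 and 2.19 CPM in WT and 12.4, 4.16 and 8.80 CPM in AIM2-/- (log2 difference 1.41, SE 0.41, adjusted p 0.0301), and its groups overlap. Dhcr7 was at 27.9, 22.5 and 24.3 against 41.0, 30.6 and 36.9 CPM (0.54, SE 0.15, adjusted p 0.0273), Acss2 at 19.2, 16.0 and 20.1 against 28.1, 25.6 and 24.5 CPM (0.50, SE 0.16, adjusted p 0.0407) and Fads1 at 24.2, 21.7 and 21.1 against 32.8, 25.5 and 30.2 CPM (0.40, SE 0.13, adjusted p 0.04). Mvd, at 14.3, 14.6 and 16.3 against 22.3, 17.7 and 19.0 CPM (0.39, SE 0.13, adjusted p 0.0444), and Ebp, at 47.4, 49.7 and 51.7 against 57.4, 59.5 and 56.2 CPM (0.22, SE 0.07, adjusted p 0.0383), were also higher. On the lower side, Fasn was at 558, 538 and 508 against 270.1, 389 and 319 CPM (-0.71, SE 0.18, adjusted p 0.0164) and Acaca at 43.9, 43.7 and 41.8 against 24.4, 37.5 and 34.8 CPM (-0.42, SE 0.12, adjusted p 0.0275). Idi1, at 1.77, 2.34 and 2.04 against 1.14, 0.878 and 1.39 CPM (-0.85, SE 0.28, adjusted p 0.0434), and Hsd17b7, at 23.8, 28.3 and 28.2 against 19.9, 21.7 and 19.2 CPM (-0.40, SE 0.13, adjusted p 0.0403), were lower too. Srebf2, at 461, 438 and 454 against 319, 386 and 332 CPM (-0.38, SE 0.11, adjusted p 0.0281), and Scap, at 175, 174 and 166 against 125, 146 and 141 CPM (-0.32, SE 0.10, adjusted p 0.0326), complete the set, so enzymes of sterol synthesis and of fatty acid synthesis lie on both sides.

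**Figure D4:**
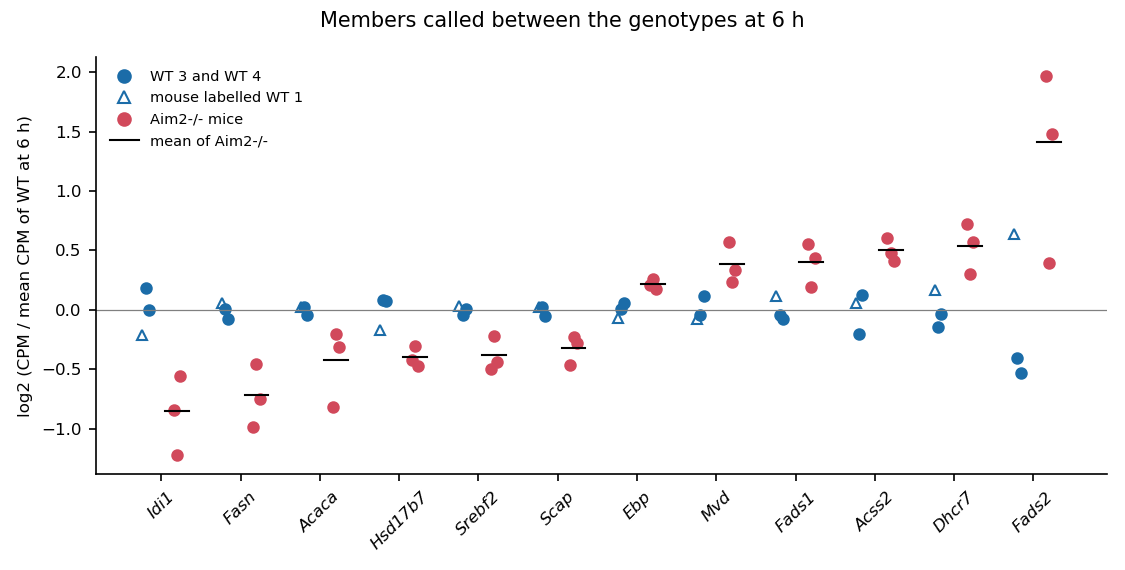
Levels at 6 h of the 12 genes that differed between genotypes, on a log scale, with a point for each mouse and the mouse labelled WT 1 as an open triangle. Apart from Fads2, where the mouse labelled WT 1 lies above AIM2-/- mouse 2, the genotypes do not overlap.

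The calls between genotypes depended on which mice were kept. Without the mouse labelled WT 1 5 genes passed at 6 h, where 11.4% of all tested genes did: Fasn, at -0.68 (adjusted p 0.0482), Dhcr7, at 0.63 (adjusted p 0.0363), Hsd17b7, at -0.48 (adjusted p 0.0304), Fads2, at 1.88 (adjusted p 0.021), and Scd2, at 0.94 (adjusted p 0.0393). Without WT 3, WT 4, AIM2-/- 1 or AIM2-/- 4, 0 passed, where 1.14%, 0.607%, 1.92% and 2.71% of all tested genes did, and without AIM2-/- 2, 14 passed, against 25.7%. With size factors from the RLE method 2 were higher and 6 lower, where 15.6% of all tested genes passed. With library totals 7 were higher and 5 lower, against 15.8%. At 6 h the macrophage and monocyte marker sum was 45.4, 28.6 and 21.1 CPM in WT and 171, 54.9 and 74.2 CPM in AIM2-/-, the B cell sum 3.50 to 6.65 against 11.1 to 36.4 CPM, the dendritic cell sum 2.66 to 3.55 against 4.3 to 14.2 CPM and the erythroid sum 8.03 to 14.9 against 11.9 to 96.3 CPM; the part of these cells in the differences was not tested. Of the 6 genes higher in AIM2-/- at 6 h, 4 had the AIM2-/- mice in the order of the macrophage sum, Fads2, Dhcr7, Fads1 and Mvd. Of the 6 lower, 4 had them in the reverse order, Fasn, Acaca, Scap and Srebf2. The granulocyte and mast cell sum, at 130, 44.0 and 52.4 CPM, also had the order of the macrophage sum. So did the B cell, dendritic cell and erythroid sums, while the CD8 T cell sum, at 13.3, 9.28 and 8.08 CPM, did not. Among genes, the order was compared for those called between genotypes at 6 h alone. The share of all tested genes with either order was not computed, so these counts have nothing to be set against. At 0 h 0 of the 37 genes passed in edgeR, where 5.23% of all tested genes did, with 24.3% of the 37 and 23.8% of all tested genes at an unadjusted p below 0.05. DESeq2 called 3 (10.1% of all tested genes), limma-voom 0, and edgeR without the mouse labelled WT 1 called 1 (5.77%). At 3 h 0 passed, against 0.294%, with 16.2% of the 37 and 15.3% of all tested genes at an unadjusted p below 0.05, 0 in DESeq2 and limma-voom, and 1 without that mouse (2.71%). At 24 h 0 passed, against 0.666%, with 24.3% of the 37 and 20.5% of all tested genes at an unadjusted p below 0.05, 2 in DESeq2 (5.14%), 0 in limma-voom and 0 without that mouse (1.05%).

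The response to stimulation itself was compared between genotypes by an interaction term. In edgeR 0 of the 37 genes passed at 3, 6 and 24 h, where 0%, 0.0261% and 0% of all tested genes did, and 2, 7 and 7 had an unadjusted p below 0.05 (5.41%, 18.9% and 18.9%, against 4.26%, 13.2% and 11.9% of all tested genes). DESeq2 called 0, 1 and 0 (1.99% of all tested genes at 6 h), and limma-voom 0 at each time, and without the mouse labelled WT 1 edgeR called 0 at each time. Hsd17b7 came nearest at 6 h, with a log2 difference in response of -0.83 (SE 0.18, adjusted p 0.0714) and a level at 0 h that was 0.43 (SE 0.13, adjusted p 0.0588) higher on the log2 scale in AIM2-/-. Hsd17b7 lies on chromosome 1 at 169949535 to 169969241, and the targeted gene Aim2 on the same chromosome at 173350879 to 173466040. Whether that position has a part in its differences between genotypes was not tested. With each mouse as a block, which takes the repeated libraries of an animal into account, 2 genes passed at 6 h (5.41%, against 4.68% of all tested genes), Hsd17b7 at -0.82 (adjusted p 0.0123) and Fasn at -0.73 (adjusted p 0.0147), both with a smaller rise in AIM2-/-, and 1 at 24 h (2.70%, against 2.77%), Mylip, at 0.70 (adjusted p 0.0367), with a smaller fall in AIM2-/-. With that block and without the mouse labelled WT 1, a fit chosen after seeing the data, 2 genes passed at 6 h and 1 at 24 h, where 3.49% and 4.22% of all tested genes did. These were Hsd17b7, at -1.04 (SE 0.16, edgeR adjusted p 0.0040), and Fasn, at -0.68 (SE 0.18, edgeR adjusted p 0.0475), at 6 h, and Hsd17b7 at 24 h, at -0.71 (SE 0.16, edgeR adjusted p 0.0199), while Mylip at 24 h was 0.70 (SE 0.21, edgeR adjusted p 0.0675) and no longer passed. For Abca1 the difference in response at 24 h was -0.10 (SE 0.42, adjusted p 0.95) and for Lss -0.03 (SE 0.17, adjusted p 0.971), neither past the threshold.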

How the data were processed

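RNA from 24 libraries (6 mice, 4 times each) was analysed. According to the study's methods and the labels, CD4+ T cells were enriched from spleen by negative immunomagnetic selection, and stranded mRNA libraries were aligned to the mouse genome GRCm38 with Ensembl gene models. Isolation and stimulation are as the study's general methods describe them, and the RNA sequencing it displays is of other T cell cultures than this time course. The submitters' processing notes name STAR, DESeq2 and edgeR without versions. The deposited table holds raw counts per gene, made by the authors and not normalized. Whether they were counted by strand is not given in the sources used here. Of 54446 identifiers, 54409 matched the annotation and gave the symbols.

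Genes past edgeR's filterByExpr (minimum count 10; 15325 genes) were fitted in edgeR 4.0.16 (R 4.3.3) with TMM factors and quasi-likelihood tests, two-sided. All 24 libraries shared 1 fit with a mean for each of the 8 groups (common dispersion 0.0346), and p-values were adjusted by the Benjamini-Hochberg method within each comparison. Per-mouse changes used log2 CPM with a prior count of 2, and 3 counts were taken as the detection floor. The steps were tested on simulated data. Alternatives were RLE factors, library totals, DESeq2 1.42.0, limma-voom (limma 3.58.1), other filters, fits of only the libraries compared, blocks, each mouse left out and, chosen after seeing the data, a block on each mouse without WT 1. Totals of 19715161 to 21627018 counts make 3 counts worth about 0.15 CPM, which covers counting error only. Each group holds 3 mice, but the p-values of the shared fit rest on the spread within all 8 groups, pooled over the 24 libraries. Without a block, libraries of the same mouse enter that spread as if independent. When only the libraries compared were fitted, 1 of the listed genes differed between genotypes at 6 h, against 12 in the shared fit.

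Libraries of the same mouse deviated from their group means together (r 0.139 to 0.567 over 36 pairs of libraries), whereas those of different mice of a genotype did not (-0.432 to 0.0742 over 72 pairs), so the mouse numbers pair the libraries over time. The members and lists were chosen with earlier results of these data known. The 37 genes are all accounted for. Values in every library are given for 15 of them, set by role, and for those called between genotypes. Others are named for the largest rise or fall in a role at 24 h in WT, for a direction that differs between times, or by role, and 6 further pathway genes for a log2 change beyond 1.5 at 24 h in both genotypes, of which 1 is not reported here. Promoters came from RefSeq (GRCm38.p6). No gene was dropped among the 37.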

Additional observations from a re-analysis of the deposited data

Results flagged for a closer look

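Fads1, the delta-5 desaturase, was set aside because its response at 6 h ran in opposite directions in the 2 genotypes. It was lower than at 0 h in 3 of 3 WT mice, with a log2 change of -0.30, and higher in 3 of 3 AIM2-/- mice, with 0.13. At 0 h it stood at 25.7, 29.1 and 27.5 CPM in WT and 27.6, 24.4 and 28.7 CPM in AIM2-/-, and at 6 h at 24.2, 21.7 and 21.1 and 32.8, 25.5 and 30.2 CPM. Neither change passed the test by itself, although with each mouse as a block that in WT did (log2 change -0.30, adjusted p 0.0346), and the difference between them was 0.43 (SE 0.18, edgeR adjusted p 0.298), so it did not pass either. Without the mouse labelled WT 1 that difference was 0.53 (SE 0.21, edgeR adjusted p 0.352).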

How the results depend on the processing

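Every gene called in a comparison with 0 h kept its direction in all 14 alternatives to that comparison, and no result reversed. The number of the 37 genes called moved most in the comparisons of genotypes. The share of all tested genes called in the same fit is given in brackets. At 0 h, where 0 were called, it was 1 with library totals (4.42%), with no filter (4.78%) and with a mean of at least 1 CPM (7.3%). It was 3 with DESeq2 (10.1%) and 0 to 4 with a mouse left out (0.191% to 13.7%). At 3 h it was 1 with no filter (2.47%) and 0 to 3 with a mouse left out (0.00638% to 7.31%). At 6 h, where 12 were called (15.8%), it was 1 when only the libraries compared were fitted (7.17%). It was 0 to 14 with a mouse left out (0.607% to 25.7%). At 24 h it was 2 with DESeq2 (5.14%) or no filter (3.07%) and 0 to 8 with a mouse left out (0% to 17.3%). The interaction at 6 h gave 1 with DESeq2 (1.99%) or no filter (0.469%). It gave 2 with each mouse as a block (4.68%), or that block without WT 1 (3.49%). The interaction at 24 h gave 1 with that block (2.77%), or that block without WT 1 (4.22%), and 0 to 1 with a mouse left out (0% to 1.29%). At 3 h against 0 h the count with a mouse left out was 15 to 23 for WT (18.7% to 34.4%), and for AIM2-/- it was 11 to 18 (18.0% to 28.7%). The gap between SREBP and LXR targets at 24 h stayed between 4.87 and 5.29 log2 units in WT and 4.48 and 4.67 in AIM2-/-. The mouse number shared between genotypes is not a pairing by design (r -0.165 to 0.3 over 32 pairs), and with it as a block 4, 6, 19 and 6 of the 37 genes differed between genotypes at 0, 3, 6 and 24 h (10.8%, 16.2%, 51.4% and 16.2%, against 23.6%, 15.2%, 36.0% and 21.1% of all tested genes). The block on each mouse changed no call other than those given with it above. Library totals shifted the median of all genes at 3 h to 0.12 in WT and 0.13 in AIM2-/- and at 6 h to 0.20 in AIM2-/-. The causes of these changes were not tested. Depth limits Scd1, Idi1, Fads2 and Nr1h3 most, since they had the fewest reads.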
